A study of Mus musculus with 6 samples.

Results

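Apela, Mymx, Cntnap2, 1700019D03Rik, AU018091, B3gnt5, Lrrc34, Gtsf1l and Platr10 are 9 genes that had low signal in 2 of 3 kinds of spermatogonial stem cell culture from mice and high signal in the other. They were chosen from measured values. Each gene was represented by its probe set with the highest mean over the 6 arrays, among probe sets with exactly 1 symbol. A gene was taken when its log2 signal was below 6 on each of the 4 arrays of the cells called SSC and iSSC and 9 or more on both arrays of the cells called mSSC. Of 18194 genes, 17 met these thresholds (0.0934%). The rule leaves out 21 genes by name, and 8 of these met the thresholds: Nanog, Tdgf1, Esrrb, Nr0b1, Tet1, Lefty2, L1td1 and Cldn6. Most of the 8 are well-known genes of pluripotent cells. The other 9 of the 17 are described here (0.0495%).

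The arrays measured RNA from testis cells of male ICR mice aged 3 to 5 days. All 3 kinds of cell share this strain, sex and age, no transgene or inducing factor is named in the labels for any of them, and each kind has 2 arrays. SSC are the unipotent stem cells of the male germ line, iSSC are labelled intermediate and mSSC multipotent. Clumps of passages 0 to 1 and 9 to 10 were grown on mouse embryonic fibroblasts arrested with mitomycin. Flattened colonies and colonies that looked like embryonic stem (ES) cell colonies were then kept either in the germ stem cell medium or in a serum-free ES cell medium. The cells were collected by their morphology. The sources used here do not give the passage and medium of each array. Nor do they say whether the 2 arrays of a kind come from different cultures or animals, so the p-values below measure only the spread between these samples, which may be technical.

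A spermatogonial stem cell normally makes only sperm, but in culture such cells can occasionally turn into colonies that behave like ES cells. ES cells are held in their state by transcription factors such as Pou5f1, Nanog and Esrrb, which switch on each other and a wide set of further genes. Many of those further genes have no known part in the factor network itself, and include secreted peptides, membrane proteins, enzymes and noncoding RNAs. The 9 genes here are 8 protein-coding genes and 1 long noncoding RNA. Whether these factors act on them was not tested.

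RefSeq's promoter table for the mouse assembly GRCm38.p6 held windows of 300 bases for 7 of the 9 genes. Each runs from 250 before to 50 after an annotated start. None of the windows of these 7 genes met the definition of a CpG-rich promoter given below. CpG dinucleotides are the sites of DNA methylation in mammals. The windows of the 5 genes with a single window in that table are shown. The annotated span of B3gnt5 begins upstream of the start used, at base 19760192, so its window is not set on the outermost start. Each is printed 5′ to 3′ on the strand of the gene, with every CpG in capitals.
Apela, chr8:65037287-65037586, minus strand: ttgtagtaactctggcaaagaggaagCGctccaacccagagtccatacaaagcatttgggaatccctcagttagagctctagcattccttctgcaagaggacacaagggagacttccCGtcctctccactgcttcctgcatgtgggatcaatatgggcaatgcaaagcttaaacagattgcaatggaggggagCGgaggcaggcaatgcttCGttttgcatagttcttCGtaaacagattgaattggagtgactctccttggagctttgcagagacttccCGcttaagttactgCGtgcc
B3gnt5, chr16:19759984-19760283, plus strand: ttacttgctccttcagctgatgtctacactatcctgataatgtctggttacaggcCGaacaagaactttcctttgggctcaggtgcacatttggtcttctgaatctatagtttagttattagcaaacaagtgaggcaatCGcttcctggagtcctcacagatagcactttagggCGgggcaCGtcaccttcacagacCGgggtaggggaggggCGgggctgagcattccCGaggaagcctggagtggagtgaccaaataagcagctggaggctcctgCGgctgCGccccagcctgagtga
Lrrc34, chr3:30647769-30648068, minus strand: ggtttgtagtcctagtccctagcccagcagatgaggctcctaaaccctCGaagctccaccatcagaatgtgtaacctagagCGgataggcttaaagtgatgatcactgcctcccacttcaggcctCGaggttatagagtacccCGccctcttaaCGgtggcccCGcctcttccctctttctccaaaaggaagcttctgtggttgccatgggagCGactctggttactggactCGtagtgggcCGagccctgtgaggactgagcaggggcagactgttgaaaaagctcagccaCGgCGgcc
Gtsf1l, chr2:163089552-163089851, minus strand: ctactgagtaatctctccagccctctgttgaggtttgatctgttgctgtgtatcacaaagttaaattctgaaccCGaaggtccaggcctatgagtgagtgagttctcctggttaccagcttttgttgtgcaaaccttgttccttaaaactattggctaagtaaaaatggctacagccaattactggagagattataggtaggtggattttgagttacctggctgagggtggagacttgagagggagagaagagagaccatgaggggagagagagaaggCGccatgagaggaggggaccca
Platr10, chr3:75655682-75655981, minus strand: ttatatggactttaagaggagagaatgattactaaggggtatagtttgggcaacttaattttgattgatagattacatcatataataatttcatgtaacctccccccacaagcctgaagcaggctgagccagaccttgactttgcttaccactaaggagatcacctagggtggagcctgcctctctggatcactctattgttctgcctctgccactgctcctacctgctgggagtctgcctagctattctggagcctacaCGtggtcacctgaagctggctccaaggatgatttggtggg

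A CpG-rich promoter is defined here as a window with a GC content of at least 50% with a ratio of observed to expected CpG of at least 0.6. None of the windows shown met both limits. The Platr10 window holds 1 CpG (ratio 0.06) and the Gtsf1l window 2 (ratio 0.13), both at a GC content of 47.0%. The windows of Apela, B3gnt5 and Lrrc34 hold 7, 9 and 11 CpGs, with ratios of 0.389, 0.425 and 0.463. Over all 32851 windows of the table the median ratio was 0.384 and the median GC content 52.67%, so these 3 ratios lie above the middle of the table and those of Platr10 and Gtsf1l below it. Cntnap2 has 2 windows and 1700019D03Rik has 7, and some of these came near the limits. For Cntnap2, 1 window had a ratio of 0.567 at a GC content of 59.67%. For 1700019D03Rik, 1 window had a ratio of 0.587 at 65.33%, and another had 0.733 at 45.0%. The remaining windows of these 2 genes had ratios of 0.0 to 0.23. The count that follows therefore depends on where the limits are set. Counted by gene, 0 of 7 had a CpG-rich window, against 36.0% of the 27025 genes in the table. Over the last 200 bases of the window alone, 1 of the 7 genes (14.3%) passed the same definition, against 38.2% of all genes.

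A search of both strands for 10 short motifs found few in the 14 windows of these genes. The octamer ATGCAAAT, bound by Pou5f1 and its relatives, was in 0 windows (1.74% of all windows), and the Esrrb motif TCAAGGTCA also in 0 (0.423%). The Sox motif ACAATNG was in 2 windows, those of Platr10 at base -56 from the start and of 1700019D03Rik (8.09% of all windows). The box CCAAT was in 7 windows of 4 genes, among them Apela at base -8 and Gtsf1l at bases -100 and -75 (37.4% of all windows). The E-box CACGTG was in the window of Platr10 (7.15%) and the Klf motif GGGNGTGG in 1 window of 1700019D03Rik (17.6%). The motifs TATAAA, TGACGTCA, TTTNGCGC and CCGGAAGT were each in 0 windows, against 13.6%, 1.79%, 1.38% and 3.89% of all windows. No hits of different motifs overlapped. A match is a run of letters and not a bound site, and no match says only that these letters are not in these windows.

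The deposited values are log2 signals made with RMA, a method that subtracts background, equalises the distributions of the arrays and combines the probes that belong together into 1 value. The median signal of an array lay between 5.83 and 5.93 and its lower quartile between 4.23 and 4.38. The marker genes of each cell type were set against the labels. The 8 pluripotent cell markers had a median of 6.54 and 7.29 in SSC, 8.05 and 8.22 in iSSC, and 11.81 and 12.38 in mSSC. They were Nanog, Pou5f1, Sox2, Esrrb, Zfp42, Tdgf1, Dppa5a and Fbxo15. Nanog, Esrrb and Tdgf1 met the thresholds of the rule on these arrays, and Sox2 and Zfp42 are also left out by name. This median is therefore not independent of the rule. The median of 7 measured markers of spermatogonial stem cells went the other way, at 9.18 to 10.66 in SSC and iSSC and 6.07 and 6.30 in mSSC. Of these, Gfra1, Ret, Zbtb16, Id4, Bcl6b and Lhx1 had lower means in mSSC than in SSC. Etv5 instead was higher, with means of 9.41 in SSC, 10.59 in iSSC and 11.33 in mSSC. Germ cell markers had medians of 10.92 to 11.91 in SSC and iSSC and of 8.23 and 7.80 in mSSC. The medians of 8 macrophage markers were 12.22 and 11.29 in SSC, 9.38 and 8.73 in iSSC, and 5.07 and 4.43 in mSSC, with 2 of the 8 below the lower quartile in mSSC. The medians of 7 measured fibroblast markers were 13.04 and 12.01 in SSC, 9.92 and 10.64 in iSSC, and 8.02 and 10.95 in mSSC, none of them below the lower quartile in any kind. The macrophage median was thus lowest on the mSSC arrays, where the 9 genes are high, and was already lower in iSSC than in SSC. The fibroblast median was lower in mSSC than in SSC, but on mSSC replicate 2 it was above both iSSC arrays. The median of Sertoli cell markers was 7.49 and 7.67 in SSC, 6.30 and 6.36 in iSSC, and 6.46 and 6.47 in mSSC. Over the 6 arrays, medians of endoderm markers ran from 6.01 to 7.18 and those of trophoblast markers from 4.95 to 5.56. The part of these cells in the results was not tested. In bulk RNA such as this, fewer cells of a type and less RNA per cell cannot be told apart.

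On the 4 SSC and iSSC arrays the 9 genes gave log2 signals of 3.52 to 5.44, and on the 2 mSSC arrays 9.14 to 11.49. All 36 low values were below the median of their array, which the rule nearly ensures by holding them below 6. Of the 36, 16 were also below the lower quartile of their array. Lrrc34 and Mymx were below the lower quartile on all 4 of these arrays, while AU018091, Cntnap2 and Platr10 were above it on all 4. The gap from the highest SSC or iSSC array to the lowest mSSC array ran from 4.18 for Platr10 to 6.09 for Lrrc34. No gene has an array in between, so the groups do not overlap, as the rule requires. The differences of mSSC from SSC and from iSSC that follow are therefore descriptions and have no test. They share the same mSSC arrays and are given on the log2 scale, with the standard error (SE) of the fit, and are not turned into folds because the low values are at or near the background of the arrays.

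**Figure D1:**
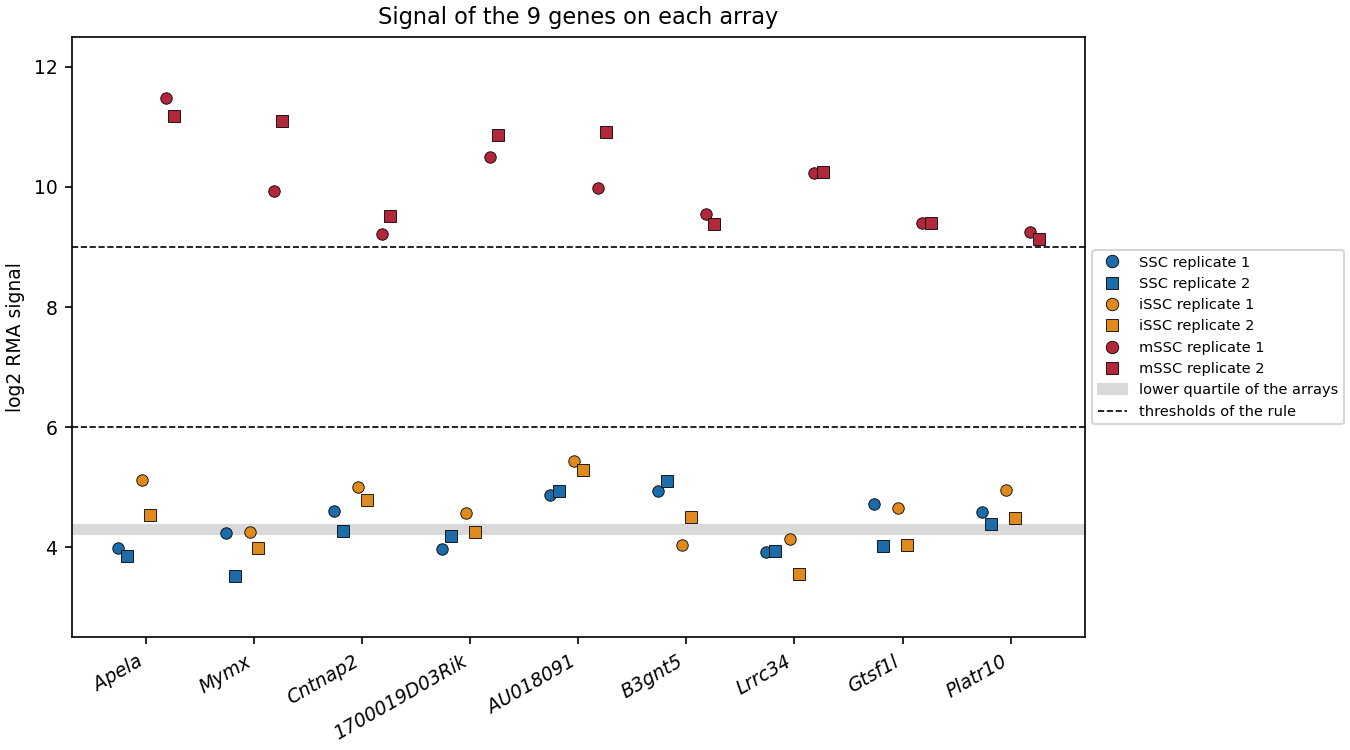
Log2 RMA signal of the 9 genes (horizontal axis) on each of the 6 arrays, with 1 point per array, circles for replicate 1 and squares for replicate 2. The dashed lines are the thresholds at 6 and 9 and the grey band spans the lower quartiles of the arrays; all mSSC points lie between 9.14 and 11.49 and all others between 3.52 and 5.44, and levels are comparable within a gene but not between genes.

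Apela encodes Elabela, a short secreted peptide that acts as a ligand of the apelin receptor and is made by ES cells. Its signal was 3.99 and 3.86 in SSC, 5.12 and 4.53 in iSSC, and 11.49 and 11.18 in mSSC. Both mSSC arrays were high and both iSSC arrays lay slightly above the SSC arrays. The mSSC mean exceeded that of SSC by 7.41 and that of iSSC by 6.51 (SE 0.27). The receptor of this ligand, Aplnr, gave 5.62 and 5.14 in SSC, 5.42 and 5.53 in iSSC, and 5.79 and 5.67 in mSSC. All 6 values were below the array medians, and the receptor did not pass the test between mSSC and SSC (0.35 ± 0.24 SE, limma, adjusted p = 0.367). The other ligand of the receptor, Apln, did not pass either (0.42 ± 0.26, limma, adjusted p = 0.315). These and the other partner genes below were selected after the 9 genes were known.

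Mymx encodes myomixer, a small membrane peptide with which myoblasts fuse into muscle fibres. Its signal was 4.23 and 3.52 in SSC, 4.25 and 3.99 in iSSC, and 9.94 and 11.10 in mSSC. The 2 mSSC arrays were 1.16 apart, the widest gap between mSSC replicates among the 9 genes. The mSSC mean exceeded those of SSC and iSSC by 6.64 and 6.40 (SE 0.43). Mymk, which encodes myomaker, the membrane protein that acts with myomixer in fusion, was 4.40 and 4.46 in SSC and 4.86 and 4.95 in mSSC. That difference did not pass the test (0.47 ± 0.20, limma, adjusted p = 0.151), and Mymk was below the array median on all 6 arrays.

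Cntnap2 encodes Caspr2, an adhesion protein of the neurexin family known from the membrane of axons. It gave 4.60 and 4.28 in SSC, 5.01 and 4.79 in iSSC, and 9.22 and 9.52 in mSSC. The differences of mSSC from SSC and iSSC were 4.93 and 4.47 (SE 0.24). Of its relatives, Cntnap1, Cntnap4 and Cntnap5a did not pass the test between mSSC and SSC (-0.02, 0.22 and 0.12, with limma adjusted p = 0.964, 0.583 and 0.729). Neither did Cntn2, which encodes an adhesion protein that pairs with Caspr2 on axons (0.30 ± 0.24, adjusted p = 0.437). Of 22 measured genes on a list of neural genes, 5 passed as higher and 4 as lower in mSSC than in SSC, with a median difference of 0.16 against 0.08 over all genes. Over all genes, 18.8% were called in this comparison, 8.22% as higher and 10.6% as lower.

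1700019D03Rik, listed by RefSeq with the synonym smAKAP, encodes a small membrane protein that anchors protein kinase A. Its signal was 3.96 and 4.19 in SSC, 4.57 and 4.26 in iSSC, and 10.50 and 10.86 in mSSC. All 4 SSC and iSSC arrays were low, and the differences of mSSC from them were 6.60 and 6.27 (SE 0.24). Prkar1a, which encodes a regulatory subunit of the kinase that such anchors bind, went the other way, from 12.22 and 12.41 in SSC to 10.85 and 11.14 in mSSC (-1.32 ± 0.22, limma, adjusted p = 0.0109). The other regulatory subunit measured, Prkar1b, and the catalytic subunit gene Prkaca did not pass (-0.42 and -0.40, adjusted p = 0.389 and 0.370).

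B3gnt5 encodes the enzyme that adds N-acetylglucosamine to lactosylceramide and so begins the lacto- and neolacto-series glycosphingolipids of the cell surface. Its signal was 4.94 and 5.10 in SSC, 4.04 and 4.50 in iSSC, and 9.54 and 9.38 in mSSC. Here both iSSC arrays lay below both SSC arrays. The mSSC mean exceeded those of SSC and iSSC by 4.44 and 5.19 (SE 0.24). Of 7 relatives of this enzyme, B3gnt2 and B3gnt7 passed as higher in mSSC than in SSC (1.07 ± 0.20 and 2.44 ± 0.27, limma, adjusted p = 0.016 and 0.0035) and B3gnt9 as lower (-2.32 ± 0.44, adjusted p = 0.0166), while B3gnt3, B3gnt4, B3gnt6 and B3gnt8 did not pass. B3gnt7 was 7.30 and 6.63 in SSC and 9.44 and 9.38 in mSSC. Ugcg, which encodes the enzyme of an earlier step of the same pathway, was 5.00 in 1 mSSC array and 8.73 in the other and did not pass the test (-1.72 ± 1.16, adjusted p = 0.360). Fut9, a fucosyltransferase that makes the Lewis X epitope of ES cells, was 8.34 and 4.52 in mSSC and 3.46 and 3.56 in SSC, and did not pass either (2.92 ± 1.09, adjusted p = 0.116). Fut4, which encodes a fucosyltransferase for the same epitope, did not pass between mSSC and SSC (-0.44 ± 0.20, adjusted p = 0.187) and was lower in mSSC than in iSSC (-0.82 ± 0.20, adjusted p = 0.0392). For Ugcg and Fut9 the 2 mSSC arrays were over 3 units apart, which is not seen for B3gnt5.

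Lrrc34 encodes a leucine-rich repeat protein described in pluripotent stem cells. Its signal was 3.92 and 3.94 in SSC, 4.14 and 3.56 in iSSC, and 10.22 and 10.24 in mSSC. The mSSC arrays agreed to within 0.02, and the differences from SSC and iSSC were 6.30 and 6.39 (SE 0.25). Lrrc34 is the only one of the 9 on the list of pluripotency factors and ES cell markers drawn up for these data, a list that also holds several of the genes the rule leaves out. Of its 49 measured genes, 41 passed as higher in mSSC than in SSC and 0 as lower, with a median difference of 3.48, where 8.22% of all genes were called higher. That count includes Lrrc34, Nanog, Tdgf1, Esrrb, Nr0b1, Tet1 and L1td1, which met the thresholds on this same difference. It also includes Sox2, Utf1, Zfp42, Tfcp2l1, Slc2a3 and Dppa3, which the rule leaves out by name but which did not meet the thresholds. The 8 genes of the list that did not pass include Klf4 and Lin28b (0.62 and 0.03, limma, adjusted p = 0.117 and 0.934).

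Gtsf1l encodes a relative of gametocyte-specific factor 1, a zinc finger protein of the piRNA pathway in germ cells. It was 4.73 and 4.03 in SSC, 4.66 and 4.03 in iSSC, and 9.39 and 9.40 in mSSC. The low arrays were spread over 0.70 and the mSSC arrays nearly coincided; the differences of mSSC from SSC and iSSC were 5.02 and 5.05 (SE 0.33). Its relative Gtsf1 had the opposite order, with 11.68 and 11.59 in SSC, 12.76 and 12.17 in iSSC, and 10.73 and 8.78 in mSSC. The fall of Gtsf1 passed the test from iSSC (-2.71 ± 0.60, limma, adjusted p = 0.0281) but not from SSC (-1.88 ± 0.60, adjusted p = 0.0787).

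AU018091 is listed by RefSeq as protein coding. It was 4.88 and 4.93 in SSC, 5.44 and 5.28 in iSSC, and 9.98 and 10.92 in mSSC. The mSSC arrays were 0.94 apart, the widest gap after that of Mymx, and the differences from SSC and iSSC were 5.54 and 5.09 (SE 0.33). Platr10 is a long noncoding RNA of a series named for transcripts associated with pluripotency. Its signal was 4.58 and 4.38 in SSC, 4.95 and 4.48 in iSSC, and 9.25 and 9.14 in mSSC, with differences of 4.71 and 4.48 (SE 0.24).

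Between the mSSC arrays, 6 of the 9 genes were higher in replicate 2 (Mymx, AU018091, 1700019D03Rik, Cntnap2, Lrrc34 and Gtsf1l) and 3 in replicate 1 (Apela, B3gnt5 and Platr10). The mSSC arrays were therefore not offset in 1 direction for all 9 genes. All 9 were called higher in mSSC against SSC, as were 8.22% of all genes, and in mSSC against iSSC, where 17.1% of all genes were called, 7.53% as higher and 9.6% as lower, and nothing is read from that count because the rule chose the genes on these differences.

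The comparison between iSSC and SSC asks how far the 9 genes differed between the low groups. The rule does not set one group against the other, but it holds both below 6. A gene that had risen to 6 or more on an iSSC array was left out beforehand. The comparison can therefore show only differences below that limit, and cannot say whether genes high in mSSC had already risen in iSSC. In limma's test 0 of the 9 genes passed a Benjamini-Hochberg adjusted p of 0.05 over all genes, where 2.09% of all genes were called (0.225% as higher and 1.87% as lower). At an unadjusted p under 0.05 in this test there were 2 of the 9, Apela and B3gnt5, beside 3090 of all 18194 genes. Nothing is read from that count. Apela was higher in iSSC by 0.90 ± 0.27 (95% interval 0.25 to 1.55, adjusted p = 0.176), and B3gnt5 lower, at -0.75 ± 0.24 (-1.33 to -0.18, adjusted p = 0.196). Both iSSC arrays lay above both SSC arrays for 4 of the 9 genes, Apela, 1700019D03Rik, AU018091 and Cntnap2, as they did for 32.3% of all genes. Both lay below for 1 of the 9, B3gnt5, as for 17.7% of all genes. None of these 5 differences passed the test. For the other 7 genes the difference ran from -0.08 for Lrrc34 to 0.46 for Cntnap2 and every interval included 0.

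The intervals show what the 2 arrays of each kind can resolve. That of Mymx reached from -0.80 to 1.29, that of Gtsf1l from -0.82 to 0.75 and that of Lrrc34 from -0.69 to 0.52. Of the 9 genes 6 were higher and 3 lower in iSSC, with a median difference of 0.24 against 0.10 over all genes.

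**Figure D2:**
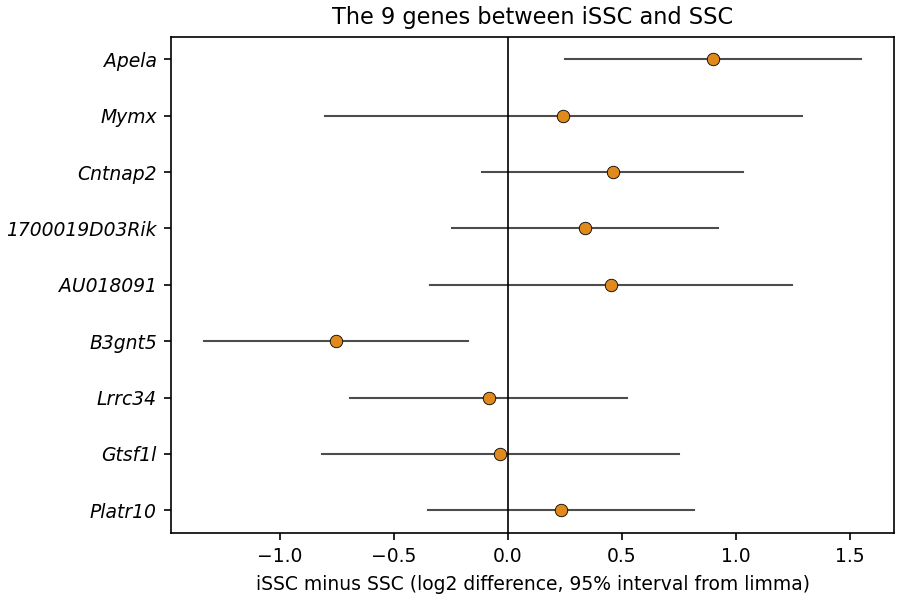
Difference between iSSC and SSC for the 9 genes (horizontal axis, log2; points are differences of means of 2 arrays, bars the 95% interval from limma). The intervals of Apela, at 0.90, and B3gnt5, at -0.75, lie to either side of 0 and the other 7 include it; none of the 9 passed after adjustment over all genes.

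For 5 genes the array has 1 probe set with a single symbol, and for the other 4 it has 5 further ones, which the rule did not read. On all 5 both mSSC arrays lay above all SSC and iSSC arrays, an order shown by 19.5% of the 16764 such further probe sets of all genes and by 20% of all genes. The second probe set of 1700019D03Rik gave 4.38 to 4.52 in SSC and iSSC and 8.01 and 8.68 in mSSC, a gap of 3.49 where the first probe set had 5.93. For B3gnt5 the second probe set gave 3.10 to 3.24 and then 5.37 and 5.79 in mSSC. For Apela it gave 3.49 to 3.68 and then 4.95 and 4.73, so the gap between the groups was 1.05 where the first probe set had 6.06. The second probe sets of all 3 genes thus keep the order at a smaller size.

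For Cntnap2 the further probe sets show almost no separation. On 1437782_at the SSC and iSSC arrays gave 3.10 to 3.33 and the mSSC arrays 3.34 and 3.75. On 1450758_at they gave 3.48 to 3.92 and the mSSC arrays 3.97 and 4.00. Both stayed below the lower quartile of both mSSC arrays, with gaps of 0.0086 and 0.0474. The high signal of Cntnap2 in mSSC thus rests on 1 of its 3 probe sets, and of all 5 further probe sets only that of 1700019D03Rik reached 6 in an mSSC array. With the mean of all probe sets of a gene in place of the brightest, Apela, B3gnt5 and Cntnap2 no longer met the thresholds and 6 genes did. The differences of mSSC from SSC were then 4.33 for Apela, 3.40 for B3gnt5 and 1.92 for Cntnap2.

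**Figure D3:**
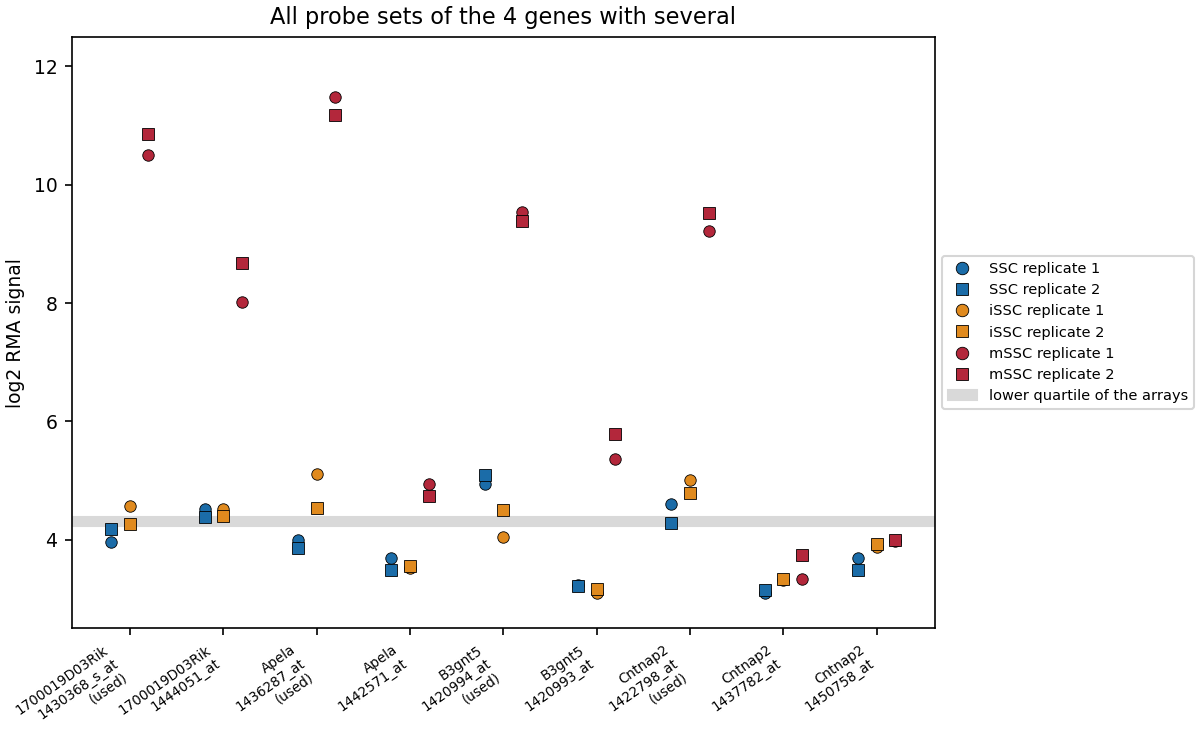
Log2 RMA signal of every single-symbol probe set of 1700019D03Rik, Apela, B3gnt5 and Cntnap2 on the 6 arrays (circles replicate 1, squares replicate 2; the grey band spans the lower quartiles of the arrays). The first probe set of each gene, marked as used, was read by the rule; the 2 further probe sets of Cntnap2 stay below the band in mSSC, at 3.34 to 4.00.

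The thresholds divide a continuous range. Nearest to them on the inner side are Platr10, with 9.14 on its lower mSSC array, and Cntnap2, with 9.22, while the highest SSC or iSSC value is the 5.44 of AU018091. Just outside on the mSSC side lie Pipox (8.95 on its lower mSSC array), Cldn7 (8.94), Cldn4 (8.91) and Gng3 (8.91), and beyond these Liph (8.73) and Enpp3 (8.71). Trh, the thyrotropin-releasing hormone gene, missed the low threshold at 6.12 on 1 iSSC array, and 2500002B13Rik missed both, at 6.19 and 8.87. A low threshold of 5.5 left the 9 genes as they are and one of 6.5 added Cobl, Pcolce2 and Trh. A high threshold of 9.5 kept only Apela, Mymx, 1700019D03Rik, AU018091 and Lrrc34, and one of 8.5 added 8 genes and gave 17.

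**Figure D4:**
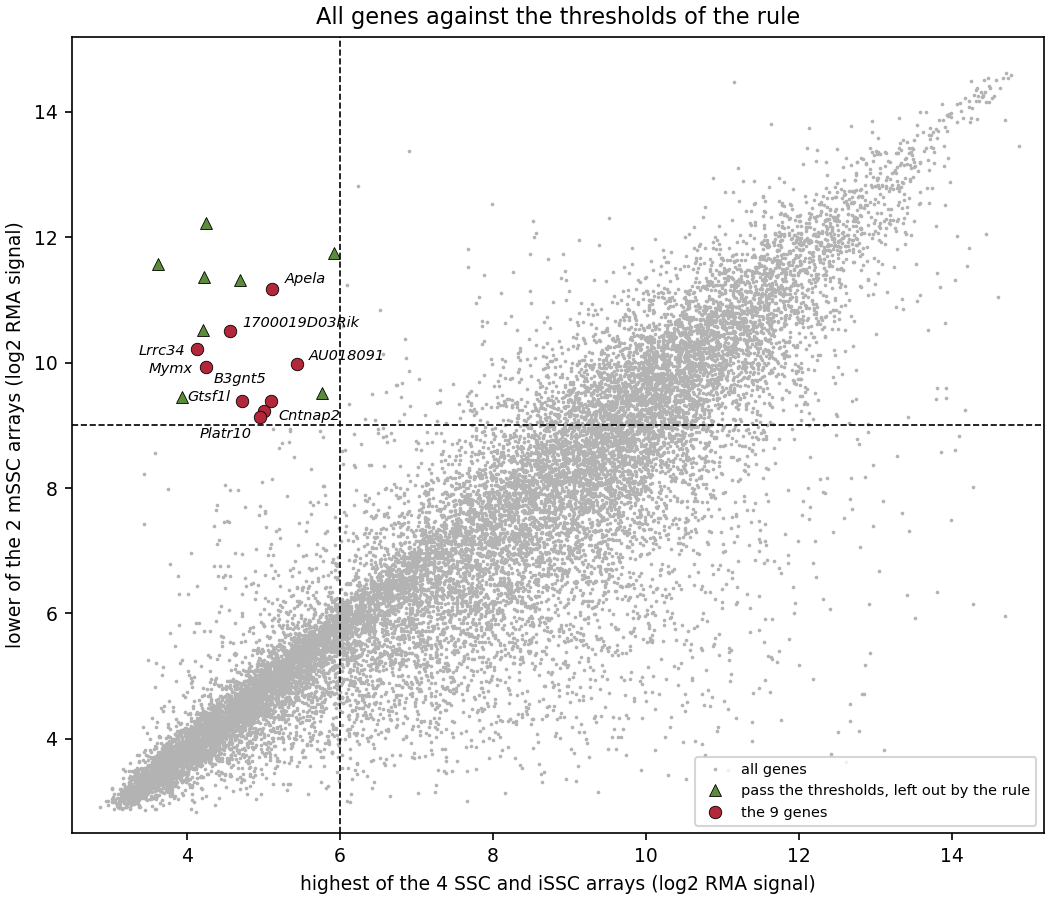
All 18194 genes by their highest SSC or iSSC array (horizontal axis, log2 RMA signal) and their lower mSSC array (vertical axis, log2 RMA signal), with the thresholds at 6 and 9 as dashed lines. The 9 named genes (circles) and the 8 genes that met the thresholds but are left out by name (triangles) fill the upper left corner, which holds 0.0934% of all genes.

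The 9 genes lie on 8 chromosomes, numbers 1, 2, 3, 6, 7, 8, 16 and 17, and 2 of them, Lrrc34 and Platr10, share chromosome 3 at a distance of 45.0 Mb in GRCm38.p6. No pair of them is adjacent. For each gene the nearest measured genes on either side, up to 2 per side and within 500 kb, were read from the same RefSeq annotation, which gave 29 neighbours. Between mSSC and SSC 11 of the 29 were called (37.9%, against 18.8% of all genes), 6 as higher (20.7%, against 8.22%) and 5 as lower, with a median difference of 0.41.

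Within 5 kb, a limit set after these values were seen, there were 6 neighbours, of which 4 were called higher and 1 lower. Of all genes, 8.22% were called higher and 10.6% lower. Whether position has a part was not tested. Mybl2, a cell cycle transcription factor gene 2.34 kb from Gtsf1l, rose by 3.95 ± 0.20 (limma, adjusted p = 0.000519) from a mean of 8.12 in SSC to 12.07 in mSSC. Mybl2 is also on the list of pluripotency factors and ES cell markers. Slc29a1, a nucleoside transporter gene 1.34 kb from Mymx, rose by 3.11 ± 0.32 (adjusted p = 0.0028), from 8.38 to 11.50. Hibch, an enzyme gene of valine breakdown 1.34 kb from 1700019D03Rik, rose by 1.51 ± 0.23 (adjusted p = 0.0085). The SSC means of Mybl2, Slc29a1 and Hibch were all above the array medians, at 8.12, 8.38 and 7.50. Lrriq4, whose span overlaps that of Lrrc34, rose by 1.30 ± 0.21 (adjusted p = 0.0109), from 5.07 to 6.37. Mynn, 4.39 kb from Lrrc34 on the other side, did not pass (0.33 ± 0.61, adjusted p = 0.756), and Serpini1, 4.92 kb from Platr10, fell by 1.30 ± 0.27 (adjusted p = 0.0218).

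AU018091 lies 49.42 to 51.57 kb from 8 microRNA genes, Mir290a, Mir290b, Mir291b, Mir292, Mir292b, Mir293, Mir294 and Mir295, a cluster known as the main source of microRNAs in mouse ES cells. No mature microRNA was measured on these arrays. The nearest measured genes on that side, Nlrp12 and Myadm, differed between mSSC and SSC by 0.02 ± 0.25 and -1.20 ± 0.30 (limma, adjusted p = 0.964 and 0.0382), and only Myadm passed the test.

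**Figure D5:**
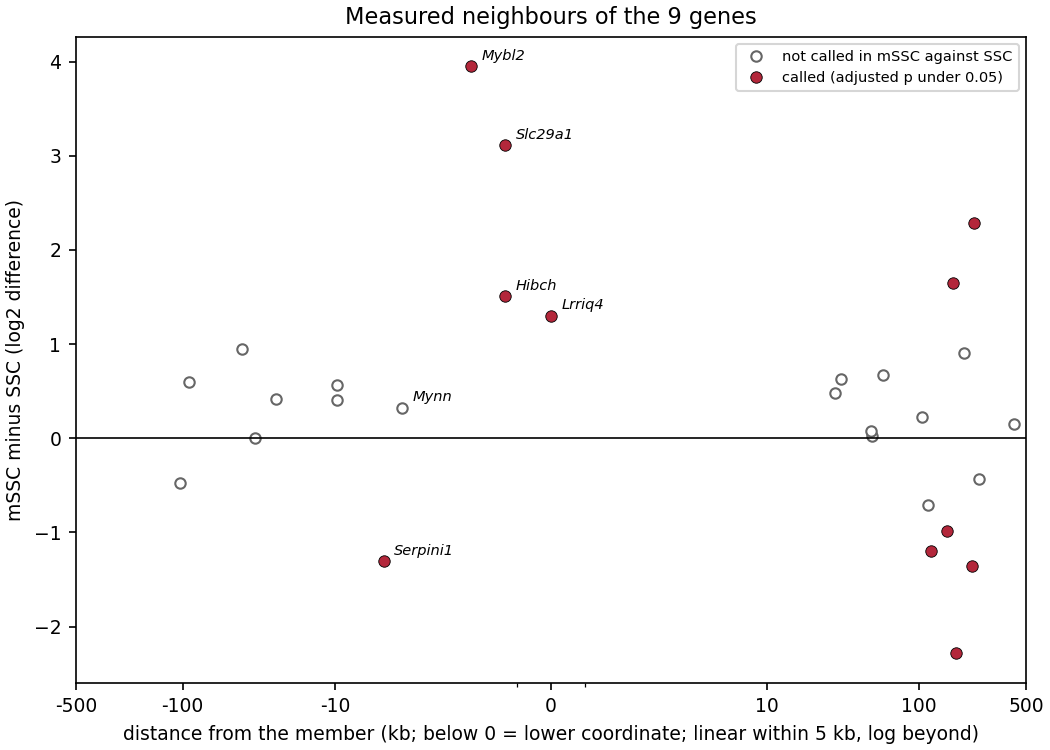
Difference between mSSC and SSC (vertical axis, log2) of the 29 measured neighbours of the 9 genes, by their distance in kb (horizontal axis, linear within 5 kb and logarithmic beyond, negative towards lower coordinates). Filled points were called; of the 6 named neighbours within 5 kb Mybl2, Slc29a1, Hibch and Lrriq4 are higher, Serpini1 is lower and Mynn is not called.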

How the data were processed

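RNA of 6 samples was measured on Affymetrix mouse arrays. Per the labels' protocols, 10 µg of total RNA was amplified and biotin-labelled with NuGEN kits. The deposited values are log2 signals that the authors made with RMA, per the submitters' processing notes; the sources used here give no version. No further normalization or filter was applied. Of 45101 probe sets 34958 had exactly 1 symbol, 932 several and 9211 none in the probe table used, and the brightest per gene gave 18194 genes.

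The 3 group means were fitted to all 6 arrays with limma 3.58.1 (R 4.3.3), with variances moderated by eBayes and 2-sided tests. Calls needed a p under 0.05 after Benjamini-Hochberg adjustment over all genes, and errors after ± are SE. The fit was tested on simulated data. Only iSSC against SSC tests the 9 genes, since the rule used the other comparisons. The rule also held both of these groups below 6, so a rise in iSSC beyond that could not appear among the 9 genes. Positions are those of GRCm38.p6 in RefSeq, and the arrays name no build.

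The genes, gene lists, motifs and tests were chosen with earlier results of these data known. Per-array values are given for all 9 genes and for some partner genes. Other partner genes are given by a difference or only the test outcome, and genes just outside a threshold by the array value that missed it. Klf4, Lin28b and Etv5 were picked after their values were seen. Alternatives were the replicate number as a block, other variance models, fits on 4 arrays, tests without moderation, a filter on dim genes, other scalings, other choices of probe set, other thresholds, and leaving out each array. The number of arrays limits the precision.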

Additional observations from a re-analysis of the deposited data

Results flagged for a closer look

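Control probe sets of the array, whose names start with AFFX, were set aside here. Of the 10092 other probe sets without a single gene symbol, which the comparisons above do not use, 8 met the same thresholds of below 6 and 9 or more (0.0793%). The gap from the highest SSC or iSSC array to the lower mSSC array was 7.57 for 1423424_at, 6.44 for 1434279_at, 6.30 for 1434280_at, 5.94 for 1438737_at, 5.63 for 1452004_at, 5.25 for 1445670_at, 3.84 for 1444292_at and 3.59 for 1436585_at. On 1423424_at the SSC and iSSC arrays gave 3.25 to 3.80 and the mSSC arrays 11.37 and 11.65. The probe table gives several symbols for 1444292_at and none for the other 7, so no gene is named for them here.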

How the results depend on the processing

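None of the 9 genes was called between iSSC and SSC in limma under any alternative fit that kept both arrays of SSC and of iSSC. The lowest adjusted p was 0.133, for Apela with the replicate number as a block. These fits are not separate checks: leaving out either mSSC array gave the same result here as using only the 4 arrays. The unmoderated test called only 2 of all genes, so it could hardly call any of the 9. Many of the 16 alternative fits change only the test or the mSSC arrays, so the difference of iSSC from SSC cannot move in them. The probe set of largest variance was also the one already used for these genes. Of the 144 differences over all 16 fits, 6 reversed sign, all in settings that can move the difference. These were Gtsf1l with median centring (0.0398), without SSC replicate 1 (0.32) and without iSSC replicate 2 (0.28). The others were Mymx without SSC replicate 2 (-0.12), Platr10 without iSSC replicate 1 (-0.00094) and Lrrc34 without iSSC replicate 2 (0.21). With 1 array left out, Gtsf1l ranged from -0.38 to 0.32, Mymx from -0.12 to 0.60, Platr10 from -0.00094 to 0.47 and Lrrc34 from -0.37 to 0.21. The lowest difference of mSSC from SSC or iSSC for any of the 9 genes was 1.59, for Cntnap2 against iSSC with the mean of probe sets. Over all genes, calls between iSSC and SSC (381) were 2 in an unmoderated test, 29 with the mean of probe sets, 113 with the probe set of largest variance, and 0 to 503 when 1 array was left out, with 0 without SSC replicate 1, iSSC replicate 1 or iSSC replicate 2. Calls between mSSC and SSC (3425) were 14 unmoderated, 1966 on only the 4 arrays, and 1966 to 3462 with 1 array left out (2146 without SSC replicate 1, 1966 without either iSSC replicate, 2116 without mSSC replicate 1). Those between mSSC and iSSC (3117) were 26 unmoderated and 604 to 3724 with 1 array left out (604 and 771 without iSSC replicate 1 and 2, 1954 without mSSC replicate 1). The lone array of a group was then assumed to vary like the other groups. Median centring moved the median of all genes by 0.26 between mSSC and SSC and by 0.18 between mSSC and iSSC, and the share of higher among called genes from 43.6% to 63.8% and from 44.0% to 56.9%. The rule gave 5 genes at 9.5 or more, 17 at 8.5 or more, 17 with the genes left out put back (added after seeing the data), and 10 to 25 with 1 array left out, 25 of them without mSSC replicate 1. Settings that loosen the rule cannot lose a gene; of those that can, 9.5 or more lost 4 of the 9 and the mean of probe sets 3. Only 1 of the 5 further probe sets reached 6 in mSSC.

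The replicate numbers share only a number: the differences of replicate 2 from 1 correlated by 0.12 between SSC and iSSC, 0.0683 between SSC and mSSC and 0.171 between iSSC and mSSC. With the replicate number as a block, 148 genes were called between iSSC and SSC, 3428 between mSSC and SSC and 3175 between mSSC and iSSC, and 0 of the 9 between iSSC and SSC.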
